A study of Mus musculus with 4 samples.

Results

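The 10 genes described here are pan-neuronal markers whose products build the neuronal cytoskeleton or mark how far a neuron has matured: Tubb3, Map2, Mapt, Dcx, Stmn2, Gap43, Nefl, Nefm, Nefh and Ina. They were chosen by name, and all 10 were found by their GENCODE vM21 symbols among the 37437 genes of the deposited tables. RNA was taken from primary mouse cortical culture in which adeno-associated virus knocked down either CTCF (shCTCF) or, as control, lacZ (shLAC), a bacterial gene. There were 2 libraries per group. The labels give no strain, age, time after infection or share of infected cells, and nothing says that the replicates came from separate cultures, so the spread behind each p-value is that between libraries and may be purely technical. The comparison gives a view of neuron content and maturity after CTCF knockdown.

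Microtubules and neurofilaments are the main long polymers of a neurite. Tubulin isotypes and microtubule-associated proteins set microtubule stability in axons and dendrites, while the neurofilament triplet and alpha-internexin fill the axon and set its calibre. Young neurons are rich in Dcx, Stmn2 and Gap43 as they migrate and extend growth cones, and Nefh is the last of the neurofilament subunits to accumulate as axons mature.

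In CTCF knockdown, 1 of the 10 markers rose, 0 fell and 9 did not pass the test. The gene that rose was Nefh, the heavy neurofilament subunit. At an unadjusted limma p below 0.05 there were 3 markers, Nefh, Nefm and Ina, all positive, beside 2656 of all 11268 tested genes. The test was limma on log2(TPM + 1), with libraries scaled by their median ratio and p adjusted over 11268 tested protein-coding genes. All 10 markers passed the filter of at least 1 TPM (a length-corrected share of transcripts) in at least 2 libraries. Among all tested coding genes 2.41% were called higher and 3.57% lower, 5.98% in all, so 1 call among 10 markers is close to that background. The median log2 fold change (shCTCF minus shLAC throughout) of the markers was 0.09, beside -0.0046 over all tested genes, and 9 of the 10 were positive, beside 48.7% of all tested genes. Both shCTCF values lay above both shLAC values in 5 markers (Tubb3, Dcx, Nefm, Nefh and Ina) and below them in 1 (Gap43), and overlapped in 4. Over all tested genes the same separation was seen in 26.5% upward and 28% downward, 54.5% in all.

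Ctcf itself was at 8.14 and 8.80 scaled TPM in shLAC and at 3.25 and 3.39 in shCTCF. Its log2 fold change was -1.13, with an SE of 0.0659 and a limma adjusted p of 0.00233. In shLAC replicate 2, 13 satellite-like predicted genes held 20.2% of all TPM, against 0.405% to 1.86% in the other libraries, so every other gene was pressed down there and the median log2 fold change of all genes as deposited was 0.17. Scaled TPM is the deposited TPM divided by a factor per library: 1.04 and 0.832 in shLAC, and 1.10 and 1.05 in shCTCF. The sequencing depth is unknown, because TPM keeps none. With 2 libraries against 2, the smallest 2-sided p of an exact permutation test for 1 gene is 0.333. Calls depended on both shCTCF libraries and on the genes that set the scale factors. With factors from all 12816 tested genes, as used here, limma called 0 genes in each direction without shCTCF replicate 1 or without replicate 2, Ctcf included, although 1888 and 1592 genes had an unadjusted p below 0.05. With factors from the coding genes alone, the same omissions left 106 genes higher and 210 lower, and 46 higher and 102 lower, with Ctcf among them. Nefh was called in neither.

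The order of the markers by level hardly differed between libraries. TPM is corrected for length, so levels are set side by side here. Length correction does not settle how reads of overlapping exons were divided between genes. The levels are shares of all listed transcripts. Protein-coding genes without the satellite-like ones held 25.0% and 20.4% of TPM in shLAC and 26.1% and 24.9% in shCTCF. Gap43 (mean of the 4 libraries 271 TPM), Map2 (259 TPM) and Tubb3 (251 TPM) led, and their order was not fixed: Gap43 lay above Map2 in 3 of 4 libraries and Map2 above Tubb3 in 3 of 4. From the fourth place on, each marker lay above the next in 4 of 4 libraries: Stmn2 (167 TPM), Mapt (79.1 TPM), Nefl (46.0 TPM), Ina (24.8 TPM), Dcx (17.7 TPM), Nefh (7.49 TPM) and Nefm (5.83 TPM). The light neurofilament RNA was thus listed far above the medium and heavy ones in both groups. The split between Nefl and Nefm is uncertain, because their annotated exons overlap, as described below.

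**Figure D1:**
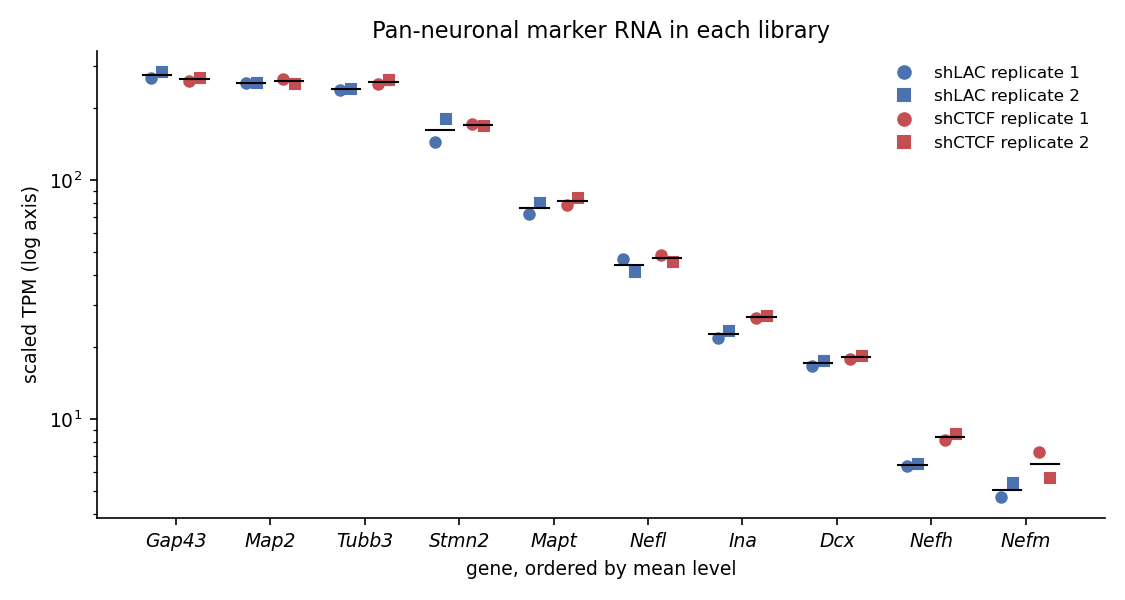
Scaled TPM (log axis) of the 10 markers, ordered by their mean level, in each of the 4 libraries; circles are replicate 1, squares replicate 2, and black bars the group means. Nefh and Ina show both shCTCF points above both shLAC points, whereas the Map2, Mapt, Stmn2 and Nefl points of the groups overlap.

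The microtubule markers did not pass the test. Tubb3 (ENSMUSG00000062380, GRCm38 chromosome 8, 123411424 to 123422015, + strand) encodes class III beta-tubulin, the neuron-restricted isotype used as a standard neuronal stain. Its scaled TPM was 239 and 241 in shLAC and 253 and 262 in shCTCF. The groups did not overlap, yet the difference was small: the log2 fold change was 0.10 (SE 0.0486, 95% interval -0.01 to 0.22, limma adjusted p = 0.260, n = 2 per group). Beta-tubulin isotypes share most of their coding sequence. They differ in the largest share of bases at the end that encodes the acidic tail, so the last coding bases are shown. Bases that tell Tubb3 reads from those of its relatives also lie before this end. The stretches start at base 1276 of each coding sequence, counted from the start codon, and run through the stop codon, in the last of 4 exons (GENCODE vM21 transcripts, GRCm38). Capitals mark, in the 5 relatives, bases that differ from Tubb3 at the same position without gaps, and, in Tubb3, bases that differ from all 5 or lie beyond their ends.
Tubb3 (chr8:123421605-123421682, + strand): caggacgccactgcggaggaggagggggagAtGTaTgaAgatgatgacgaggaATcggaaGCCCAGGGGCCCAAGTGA
Tubb2a (chr13:34074468-34074530, - strand): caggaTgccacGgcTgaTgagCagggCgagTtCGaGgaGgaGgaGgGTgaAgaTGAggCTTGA
Tubb2b (chr13:34127471-34127533, - strand): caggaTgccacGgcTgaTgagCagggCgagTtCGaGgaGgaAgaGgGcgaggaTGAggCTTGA
Tubb4a (chr17:57080690-57080749, - strand): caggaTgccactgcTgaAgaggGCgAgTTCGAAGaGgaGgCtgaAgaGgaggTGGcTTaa
Tubb4b (chr2:25222308-25222370, - strand): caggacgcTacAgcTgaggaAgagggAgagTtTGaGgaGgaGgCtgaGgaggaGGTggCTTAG
Tubb5 (chr17:35834982-35835041, - strand): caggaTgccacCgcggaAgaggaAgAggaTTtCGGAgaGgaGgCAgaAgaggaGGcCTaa

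Before base 1276, between 82.8% (Tubb5) and 85.1% (Tubb2b) of the bases equalled those of Tubb3, and in the shown tail between 61.7% (Tubb4a) and 66.7% (Tubb4b and Tubb5). Of the 1768 windows of 101 bases, the read length, in the longest Tubb3 transcript, 0 occurred in a transcript of another gene on either strand. The same held for the longest protein-coding transcript of Map2, Mapt, Dcx, Stmn2, Gap43 and Nefh. At full read length and with no sequencing error, reads from these transcripts have no identical copy in another gene of vM21. Other transcripts of these genes were not examined. For Map2 the transcript used holds 6258 bases, of 16449 exonic bases in all. Map2 also shares 124 exonic bases with Gm10558, an antisense gene at 1.61 to 2.22 TPM.

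Map2 (ENSMUSG00000015222, chromosome 1, 66175273 to 66442583, + strand) encodes the microtubule-associated protein of dendrites and cell bodies. It was at 254 and 256 scaled TPM in shLAC and at 266 and 252 in shCTCF. The groups overlapped, and the log2 fold change of 0.02 (SE 0.0511, 95% interval -0.10 to 0.14, limma adjusted p = 0.833) was the smallest in size among the 10 markers. On this scale the interval spans a change from -6.72% to 10.5%.

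Mapt (ENSMUSG00000018411, chromosome 11, 104231390 to 104332090, + strand) encodes tau, which binds microtubules mainly in the axon. It was at 72.3 and 79.8 scaled TPM in shLAC and at 78.4 and 84.3 in shCTCF, where the lower shCTCF library lay below the higher shLAC library. Its log2 fold change was 0.10 (SE 0.0651, 95% interval -0.06 to 0.25, limma adjusted p = 0.413), which was 0.03 without shLAC replicate 1 and 0.16 without shLAC replicate 2. Summed over Tubb3, Map2 and Mapt, scaled TPM reached 571 ± 7.83 (SD, n = 2) in shLAC and 598 ± 0.873 (SD, n = 2) in shCTCF, which is 105% of control.

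The markers of young, growing neurons did not pass the test either. Dcx (ENSMUSG00000031285, chromosome X, 143855842 to 143933311, - strand) encodes doublecortin, a microtubule-binding protein of migrating neurons. Its scaled TPM was 16.7 and 17.4 in shLAC and 17.8 and 18.4 in shCTCF. The groups did not overlap, with a log2 fold change of 0.08 (SE 0.0524, 95% interval -0.04 to 0.21, limma adjusted p = 0.390), which was 0.05 without shLAC replicate 1.

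Stmn2 (ENSMUSG00000027500, chromosome 3, 8509360 to 8561606, + strand) encodes a growth cone protein that binds tubulin and promotes microtubule turnover. It was at 145 and 180.1 scaled TPM in shLAC and at 171 and 169 in shCTCF, so that both shCTCF values lay between the 2 control values. Its log2 fold change was 0.07 (SE 0.0971, 95% interval -0.16 to 0.31, limma adjusted p = 0.693). The control libraries decided its direction: it was -0.08 without shLAC replicate 1 and 0.23, with a limma adjusted p of 0.0305, without shLAC replicate 2.

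Gap43 (ENSMUSG00000047261, chromosome 16, 42248442 to 42340651, - strand) encodes a membrane-bound phosphoprotein of growth cones. It was the only marker with a negative value. Its scaled TPM was 268 and 283 in shLAC and 260.0 and 268 in shCTCF (268.4 in shLAC replicate 1 against 268.0 in shCTCF replicate 2), with a log2 fold change of -0.06 (SE 0.0528, 95% interval -0.19 to 0.06, limma adjusted p = 0.513). Without a single library it lay between -0.10 and -0.03. In the unscaled values it was 0.14 (limma adjusted p = 0.785). Summed over Dcx, Stmn2 and Gap43, scaled TPM reached 455 ± 36.1 (SD, n = 2) in shLAC and 452 ± 4.07 (SD, n = 2) in shCTCF, which is 99.3% of control.

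**Figure D2:**
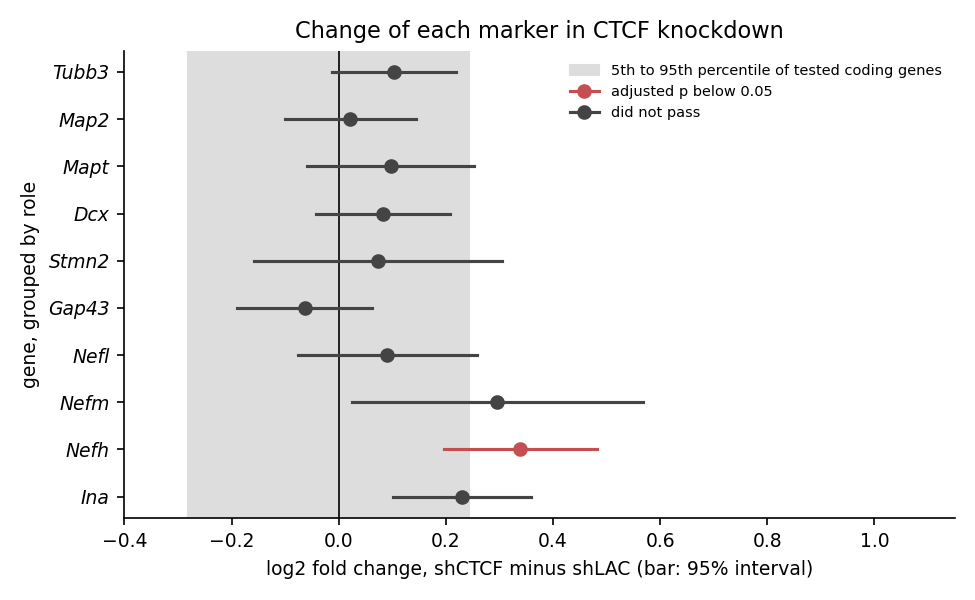
Log2 fold change of each marker in shCTCF against shLAC with its 95% interval from limma, grouped by role, over the range from the 5th to the 95th percentile of all tested coding genes (grey, -0.28 to 0.24). Nefh, at 0.34, is the marker that passed, and the intervals of Nefm (0.02 to 0.57) and Ina (0.10 to 0.36) also lie above 0 although their adjusted p did not pass.

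The neurofilament genes held the 3 largest fold changes among the markers. Nefh (ENSMUSG00000020396, chromosome 11, 4938754 to 4948064, - strand) was at 6.31 and 6.49 scaled TPM in shLAC and at 8.12 and 8.61 in shCTCF. The deposited TPM of Nefh was 6.58 and 5.40 in the control libraries and 8.91 and 9.05 after knockdown. On either scale both knockdown libraries lay above both controls, and the scaled shCTCF mean was 131% of the shLAC mean. The log2 fold change was 0.34 (SE 0.0599, 95% interval 0.20 to 0.48, limma adjusted p = 0.0274), and 5.38% of all tested coding genes had a change at least as large in size. The call was lost when all 12816 tested genes of any kind were fitted, with scaling (limma adjusted p = 0.0857) or without (0.209), with no filter on low values (0.154), and without shCTCF replicate 1 (0.118) or replicate 2 (0.207). Across 18 alternatives its log2 fold change lay between 0.30 and 0.52, and it passed in 11 of them.

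The heavy subunit carries a long tail of repeated lysine, serine and proline residues that are phosphorylated in mature axons. The coding sequence of Nefh (3273 bases) holds 49 in-frame units of AAGTCNCCN or AAATCNCCN, between bases 1564 and 2667. The 180 bases with the most such units are shown because this repeat sets Nefh apart from the other markers; capitals mark 10 units, in the last of 4 exons.
Nefh (chr11:4940884-4941063, - strand): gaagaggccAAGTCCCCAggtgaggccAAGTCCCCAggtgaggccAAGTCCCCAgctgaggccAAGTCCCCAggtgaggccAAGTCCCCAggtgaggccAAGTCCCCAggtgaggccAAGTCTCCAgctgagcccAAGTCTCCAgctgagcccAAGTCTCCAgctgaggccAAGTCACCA

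Nefm held 4 such units, Mapt 2, Map2 and Dcx 1 each, and the other 5 markers 0. Although the units resemble one another within Nefh, none of the 3894 windows of 101 bases in its transcript occurred in another gene, and no annotated gene overlapped it.

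Ina (ENSMUSG00000034336, chromosome 19, 47014698 to 47025327, + strand) encodes alpha-internexin, which assembles early and stays in the filaments of central neurons. It was at 21.8 and 23.3 scaled TPM in shLAC and at 26.4 and 26.9 in shCTCF. The groups did not overlap, and the mean was 118% of control. The log2 fold change of 0.23 (SE 0.0538, 95% interval 0.10 to 0.36) did not pass, with a limma adjusted p of 0.0581. It passed without shLAC replicate 2 (0.0255) and with coding genes set to the same total (0.0410). On the opposite strand Nt5c2 shares 456 exonic bases with Ina, and its log2 fold change was -0.04 (limma adjusted p = 0.685).

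Nefm (ENSMUSG00000022054, chromosome 14, 68082590 to 68124846, - strand) encodes the medium subunit. It was at 4.72 and 5.38 scaled TPM in shLAC and at 7.28 and 5.64 in shCTCF. The groups did not overlap, but the shCTCF libraries differed from each other by more than the group means did. Its log2 fold change of 0.30 (SE 0.114, 95% interval 0.02 to 0.57) did not pass (limma adjusted p = 0.181), and it was 0.14 without shCTCF replicate 1 and 0.46 without shCTCF replicate 2.

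Nefl (ENSMUSG00000022055, chromosome 14, 68083863 to 68089095, + strand) encodes the light subunit, the core on which the other subunits assemble. It was at 46.8 and 41.4 scaled TPM in shLAC and at 48.5 and 45.4 in shCTCF. The groups overlapped, with a log2 fold change of 0.09 (SE 0.0702, 95% interval -0.08 to 0.26, limma adjusted p = 0.476). It was 0.0011 without shLAC replicate 2 and 0.18 without shLAC replicate 1, so the control libraries set its size. In vM21 the longer of the 2 Nefm transcripts runs into Nefl from the opposite strand and shares 1108 bases with it (chr14:68083863-68084970), 32.8% of the exonic bases of Nefl. The shorter shares 0. Where counting ignored strand, reads from this stretch could go to either gene, so the split between Nefl and Nefm is uncertain, and the sources used here do not give the strand setting. Summed over the 4 neurofilament genes, scaled TPM reached 78.1 ± 2.13 (SD, n = 2) in shLAC and 88.4 ± 2.72 (SD, n = 2) in shCTCF, which is 113% of control and without overlap between the groups.

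Ratios between 2 markers in the same library do not depend on how that library was scaled. The Nefh to Ina ratio was 0.290 and 0.278 in shLAC and 0.308 and 0.321 in shCTCF, and the Nefh to Nefl ratio was 0.135 and 0.157 in shLAC and 0.167 and 0.190 in shCTCF. In both, the groups did not overlap, with an exact permutation p of 0.333 each, the smallest that this design allows (Benjamini-Hochberg adjusted over 17 ratios, 0.81). If the group labels meant nothing, each ratio would still separate with a probability of 0.333. Both pairs hold Nefh, the marker that was called, so they do not stand apart from its call. The mean log2 ratio differed between groups by 0.15 for Nefh to Ina and by 0.29 for Nefh to Nefl. In the other 7 of the 9 pairs compared the groups overlapped. Map2 to Dcx, a mature marker over a young one, was 15.2 and 14.7 in shLAC and 14.9 and 13.7 in shCTCF. Mapt to Dcx was 4.33 and 4.58 in shLAC and 4.40 and 4.58 in shCTCF. Gap43 to Map2 was 1.06 and 1.11 in shLAC and 0.978 and 1.06 in shCTCF. No ratio could pass a threshold of 0.05 in this design, so these are descriptions.

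**Figure D3:**
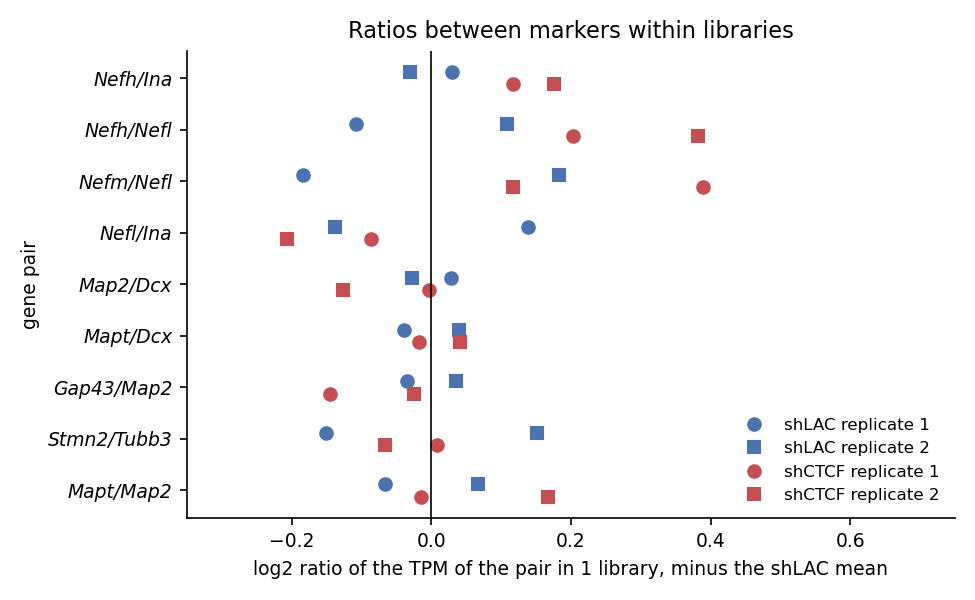
Log2 ratio of the TPM of 2 markers within each library, centred on the shLAC mean of that pair. For Nefh/Ina and Nefh/Nefl both shCTCF points lie to the right of both shLAC points; for the other 7 pairs the points of the groups overlap.

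Other genes of the neuronal cytoskeleton were examined in 8 lists. Their counts are to be read beside all 11268 tested genes. Of these, 2.41% were called higher, 3.57% were called lower and 2656 had an unadjusted limma p below 0.05. Of 9 tested alpha and beta tubulins 0 passed, by limma (1 at an unadjusted p below 0.05), with a median log2 fold change of -0.02. The most abundant, Tuba1a, was at 1577 and 1537 scaled TPM in shLAC and at 1524 and 1540.3 in shCTCF (log2 fold change -0.02, limma adjusted p = 0.848), a value that turned positive as deposited, after quantile normalization and with coding genes set to the same total. Tubb2a had a log2 fold change of -0.15 (limma adjusted p = 0.191), which was 0.05 as deposited.

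Of 23 other microtubule-associated proteins 1 rose and 0 fell (median log2 fold change 0.05). This was Clasp2, which tracks growing microtubule ends, at 63.3 and 64.8 scaled TPM in shLAC and 74.96 and 77.7 in shCTCF (log2 fold change 0.25, limma adjusted p = 0.0336). Among 8 tested microtubule destabilisers and severing enzymes 1 rose and 2 fell, beside 2.41% and 3.57% of all tested genes. With all tested genes fitted after scaling 0 rose and 1 fell, and with no filter 0 rose and 0 fell. Spast, the severing enzyme spastin, fell by 0.42 on the log2 scale (limma adjusted p = 0.0100) and Stmn1 by 0.25 (limma adjusted p = 0.0485). Stmn4, a stathmin of neurons like Stmn2, rose by 0.33 (limma adjusted p = 0.0457).

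Among 17 kinase and phosphatase genes that act on tau and MAP2, Gsk3b, a major tau kinase, was at 26.0 and 26.4 scaled TPM in shLAC and at 34.5 and 34.9 in shCTCF. It rose by 0.39 (SE 0.0465; limma adjusted p = 0.00826), and the other 16 did not pass (median of the list 0.07). Of 17 axonal transport motor genes, Kif21a, a kinesin, fell by 0.39 (limma adjusted p = 0.0335) and 16 did not pass (median 0.05). Of 4 tested genes of other cytoplasmic intermediate filaments 0 passed, by limma (1 at an unadjusted p below 0.05). The shares over all 11268 tested genes were 2.41% called higher and 3.57% lower, and 2656 had an unadjusted limma p below 0.05. Vim, the vimentin gene, had a log2 fold change of 0.16 (limma adjusted p = 0.127) and Nes, the nestin gene, one of 0.08 (0.503).

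Within these 8 lists, the largest called changes in each direction stood among 14 ankyrin, spectrin and axon initial segment genes, of which 1 rose and 1 fell (median 0.07). Ank3, which encodes ankyrin-G, the organiser of the axon initial segment, was at 19.6 and 20.5 scaled TPM in shLAC and at 30.3 and 31.5 in shCTCF. It rose by 0.60 (SE 0.0515, limma adjusted p = 0.00427), more than any of the 10 markers. Add2, which encodes beta-adducin, a cap of the actin and spectrin lattice, fell from 41.0 and 41.6 to 28.04 and 29.4 scaled TPM (log2 fold change -0.51, limma adjusted p = 0.00488). Among 16 growth cone genes Dpysl4 rose by 0.24 (limma adjusted p = 0.0411) and Ncam1, a neural adhesion molecule, fell by 0.49 (limma adjusted p = 0.0340), with a median of 0.04. Calls in these 8 lists numbered 5 higher and 5 lower among 108 tested genes, against the background of 2.41% and 3.57%. The counts were 1 higher (Ank3) and 0 lower as deposited, 2 and 2 with all tested genes fitted or with no trend in the prior, 9 and 5 with the replicate block, and 0 and 0 with no filter or without either shCTCF library. With factors from coding genes, 2 and 3 were called without shCTCF replicate 1, and 2 and 1 without replicate 2. Clasp2, Stmn4, Stmn1, Dpysl4, Kif21a and Ncam1 lost their calls with all tested genes fitted and with no trend.

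Maturation was also read from 2 lists of genes outside the cytoskeleton. They share genes with the neuron type lists below, so the lists are not independent. Camk2a (mature) and Tbr1 (immature), among others, also count as excitatory neuron markers. Of 21 mature neuron genes 4 rose, 0 fell and 17 did not pass, and 18 had a positive log2 fold change (median 0.12). Over all tested genes 2.41% were called higher, 3.57% were called lower and 48.7% were positive. Syn1, a synaptic vesicle phosphoprotein, rose by 0.29 (limma adjusted p = 0.0242), Slc12a5, the neuronal chloride exporter that appears as neurons mature, by 0.26 (0.0307) and Rbfox3, the NeuN antigen, by 0.25 (0.0485). The count called higher was 0 when all genes were fitted with or without scaling, 0 with no filter and 1 with no trend in the prior. It was 6 with coding genes set to the same total, 5 with the replicate block, and 3 with quantile normalization or a minimum mean of 5 TPM. Scaling over coding genes or a pseudocount of 0.1 left it at 4. These calls depended on both shCTCF libraries. Of 13 tested immature neuron genes 0 passed, by limma (4 at an unadjusted p below 0.05, median -0.002). Over all 11268 tested genes, 2656 had an unadjusted limma p below 0.05. Tmsb10, a thymosin abundant in young neurons, was at 307 and 338 scaled TPM in shLAC and at 292 and 320 in shCTCF (log2 fold change -0.07, limma adjusted p = 0.565), and Cd24a had a log2 fold change of -0.26 (limma adjusted p = 0.101). In the mature list 16 genes were separated upward and 3 downward, beside 26.5% and 28% of all tested genes. The immature list held 6 positive and 7 negative values, and 6 genes were separated upward and 1 downward. Chosen after their values were seen, Tbr1, a factor of young excitatory neurons, was at 0.29 (limma adjusted p = 0.0760) and Ccnd2, a cyclin, at 0.27 (0.0504). With the replicate block the immature list had 3 genes called higher and 1 lower. It had 1 higher and 0 lower with coding genes set to the same total or with factors from coding genes. In the other settings that kept all 4 libraries it had 0 calls. A difference between the mature and immature lists was not tested. Of 9 neuronal RNA-binding protein genes Elavl4, which stabilises neuronal mRNAs, fell by 0.48 (limma adjusted p = 0.0132) and 8 did not pass (median 0.09).

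**Figure D4:**
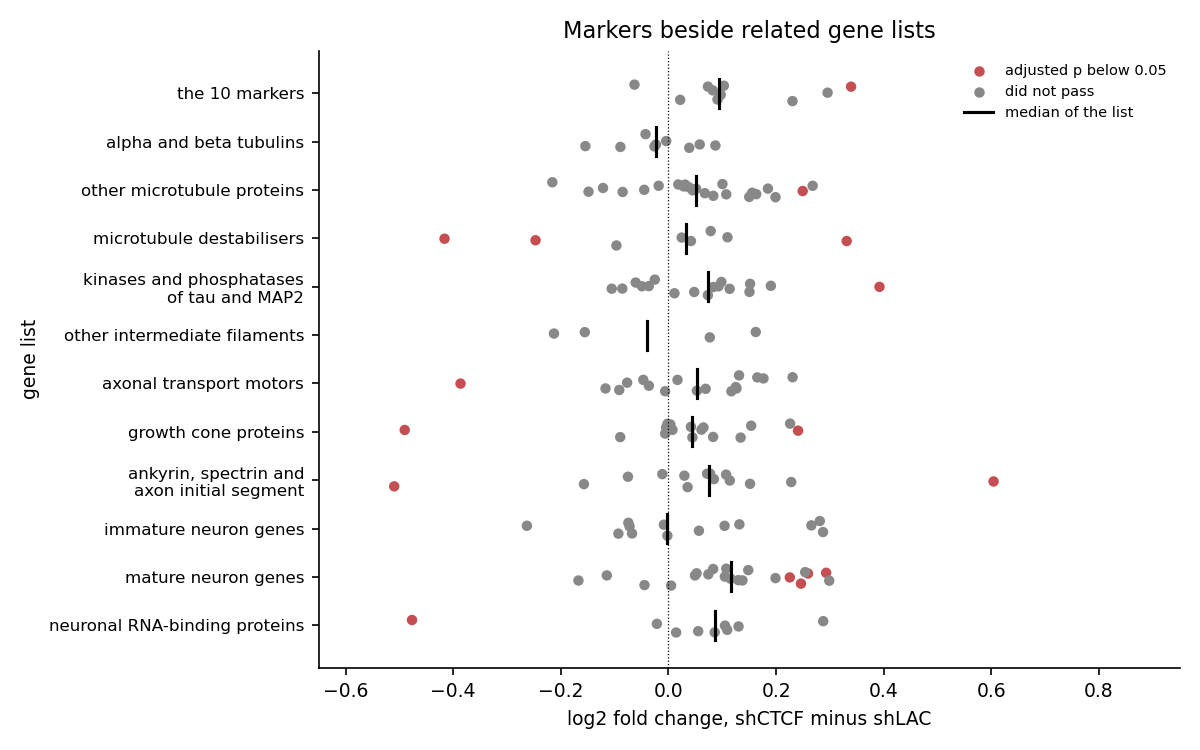
Log2 fold change of every tested gene in the 10 markers and in 11 related lists; red points passed the test, grey points did not, and black ticks are medians. Medians run from -0.04 to 0.12, and the points farthest from 0 are Ank3 (0.60) and Add2 (-0.51) in the ankyrin and spectrin list.

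The marker sum can be set against other cell types, since a culture of mixed cells holds RNA of each. The summed scaled TPM of the 10 markers was 1075 and 1134 in shLAC and 1137 and 1140 in shCTCF, 103% of control, and both shCTCF sums lay just above the higher shLAC sum. The 14 astrocyte markers summed to 160.0 and 138 in shLAC and to 133 and 110 (109.7) in shCTCF, 81.5% of control; 2 of the 13 tested fell (Aqp4, a water channel, by 1.08 and Slc1a3, a glutamate transporter, by 0.52, limma adjusted p = 0.0144 and 0.0195) and 10 had a negative value. Within libraries, the markers were 6.72 and 8.22 times the astrocyte sum in shLAC and 8.54 and 10.4 times in shCTCF, without overlap between groups (exact permutation p = 0.333). The mean log2 ratio differed by 0.34, beside an SD of 0.21 within shLAC. The ratios to the microglial, endothelial and fibroblast sums did not overlap either, with differences of 0.26, 0.60 and 0.67. Those sums were low, at no more than 3.59 deposited TPM in any library. The ratio to excitatory markers went the other way, and those to inhibitory, oligodendrocyte lineage and proliferating cell markers overlapped. Over all tested genes 3.57% were called lower, 54.5% did not overlap between groups and 48.7% were positive. Of the 13 astrocyte markers 9 overlapped between groups and 3 had a positive value. Aqp4 was low, at 5.65 and 3.49 deposited TPM in shLAC and 2.35 and 1.46 in shCTCF. At a minimum mean of 5 TPM, 6 astrocyte markers were tested and 1 fell. The number that fell was 6 without shLAC replicate 2, 5 with the replicate block, and 0 with no filter, with all tested genes fitted or without either shCTCF library (3 and 1 there with factors from coding genes). The part of astrocyte RNA in the Nefh and mature neuron results was not tested. In bulk RNA, fewer cells of a type and less RNA per cell cannot be told apart.

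Among 10 tested excitatory neuron markers 5 had a positive and 5 a negative log2 fold change, with a median of 0.05, below the 0.09 of the 10 markers. Their sum followed 2 abundant genes, Camk2a and Slc17a7: it was 224 and 231 scaled TPM in shLAC and 264 and 253 in shCTCF, 114% of control, with 0 of 10 tested markers called by limma (5 at an unadjusted p below 0.05); Camk2a (log2 fold change 0.30, limma adjusted p = 0.0776) and Slc17a7 (0.25, 0.0807) did not pass, and Bcl11b, a deep layer factor chosen after its values were seen, was at -0.23 (0.0906). The ratio of the 10 markers to them was 4.79 and 4.91 in shLAC and 4.30 and 4.50 in shCTCF (exact permutation p = 0.333). Inhibitory markers stood at 102% of control, where Slc32a1, the GABA vesicle transporter, rose by 0.36 (limma adjusted p = 0.0442) and Calb2, calretinin, fell by 0.23 (0.0456) among 10 tested. Over all 11268 tested genes 2.41% were called higher and 3.57% lower, and 2656 had an unadjusted limma p below 0.05. The Calb2 call held in 3 of 13 alternatives and was lost without each single library, and that of Slc32a1 held in 5 of 13. Oligodendrocyte lineage markers stood at 102% of control with 0 of 9 called by limma (1 at an unadjusted p below 0.05); Olig1 and Pdgfra had log2 fold changes of 0.11 (limma adjusted p = 0.485) and 0.02 (0.925). Proliferating cell and progenitor markers stood at 105% with 0 of 11 called by limma (2 at an unadjusted p below 0.05); Vim is given above and Pcna had -0.13 (limma adjusted p = 0.161). Microglial markers were below 1 TPM in all libraries in 10 of 11, with Tyrobp and C1qb listed at 0 and Cd68 at most at 2.08 TPM (log2 fold change -0.17, limma adjusted p = 0.247). The summed microglial level was 85.6% of control. All 6 endothelial markers stayed below 1 TPM. So did 6 of 7 fibroblast and pericyte markers, and the other, Dcn, fell by 0.49 (limma adjusted p = 0.0209) from a highest deposited value of 3.17 TPM.

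**Figure D5:**
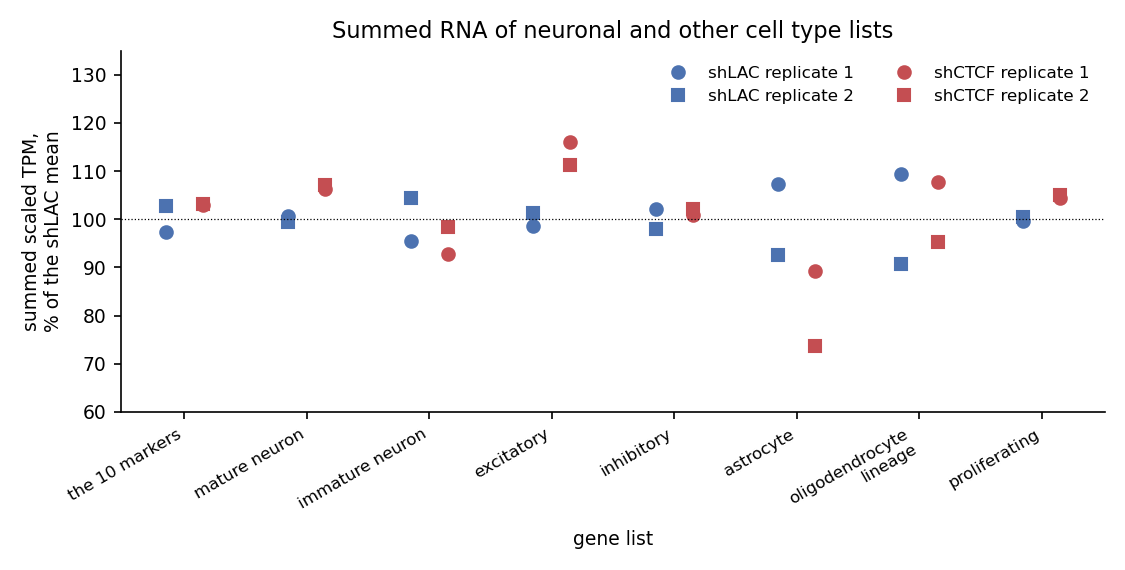
Summed scaled TPM of the 10 markers and of 7 lists of neuronal and other cell types in each library, as a percent of the shLAC mean of that list. The 10 markers stay within a few percent of control at 103%, while the astrocyte sums of shCTCF lie below both control sums at a mean of 81.5%.

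The genes most like the markers were sought over the 4 libraries. Among 4246 other coding genes with a mean of at least 10 TPM, Hk1, Bcas2, Ptpn5, Armcx1 and Gdap1l1 had the centred log2 values nearest to the median of the 10 markers, with root mean square distances from 0.00972 to 0.0112. The median of the markers itself ran from -0.10 in shLAC replicate 1 and -0.03 in shLAC replicate 2 to 0.05 and 0.04 in shCTCF. The log2 fold changes of these 5 genes lay from 0.10 to 0.12 and none passed (lowest limma adjusted p = 0.219). Because the genes were chosen by these values, their fold changes had to lie near the marker median. With 4 libraries this likeness is a description only.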

How the data were processed

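The authors deposited TPM, 1 file per library, made from paired reads of 101 bp per the labels' protocols; the values of each file summed to 1000000. The submitters' processing notes name RSEM 1.2.28, CASAVA and mm10. Annotation, aligner settings and strandedness: not given in the sources used here, so reads of genes that overlap on opposite strands may have been mixed. Names and positions came from GENCODE vM21 (GRCm38), which matched 37060 of 37437 identifiers.

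A gene was tested where 2 libraries or more reached 1 TPM. Libraries were scaled by median ratio over all tested genes. A first run had taken the factors from coding genes alone; they were changed after its output was seen, and that scaling is kept as an added alternative. Protein-coding genes with a transcript of at least 300 nt, without 13 satellite-like genes, were fitted on log2(TPM + 1) with limma 3.58.1 (R 4.3.3; trended prior with 4.65 degrees of freedom, no covariate, Benjamini-Hochberg threshold 0.05). This scale understates fold changes of low genes. The fit was tested on simulated data whose changes were all larger than that of Nefh, so that test does not cover changes of its size.

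The markers, this fit and the 19 gene lists were chosen with earlier results of these data known. From each list, up to 4 called genes with the largest change are named, or the 2 most abundant where none was called. 1 gene that this rule would name is not reported here. Alternatives covered scaling, filters, pseudocount, prior, the replicate number as a block and omission of single libraries; for the lists they were added after seeing the data.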

Additional observations from a re-analysis of the deposited data

How the results depend on the processing

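Of the 10 markers, all but Map2, Stmn2 and Gap43 kept their direction in 18 alternatives, 5 of them (size factors from coding genes, with all libraries and without each) chosen after seeing the data. Values are log2 fold changes. With single libraries left out, and a lone library assumed to vary as the other group does, 0 to 3 markers were called higher, 0 to 390 genes rose, 0 to 572 fell, and Ctcf ranged from -1.18 to -1.10, Map2 from -0.013 to 0.062 and Stmn2 from -0.082 to 0.23. With size factors from coding genes, 520 genes rose and 611 fell without shLAC replicate 1, 459 and 563 without shLAC replicate 2, and omitting shCTCF replicate 1 or 2 left 106 and 210, or 46 and 102. Markers called higher then numbered 1, 4, 0 and 0 (2 and 3 markers at an unadjusted limma p below 0.05 in the last pair), with Map2 at -0.0078 without shCTCF replicate 1 and Stmn2 at -0.082 without shLAC replicate 1. The number of markers called higher (1) was 0 as deposited, 0 with all tested genes fitted and 0 with no filter (2 markers each at an unadjusted limma p below 0.05), and 2 with coding genes at the same total. Genes called higher (272) and lower (402) became 47 and 87 with all tested genes fitted, 0 and 0 with no filter (3373 at an unadjusted limma p below 0.05), and 166 and 229 at a minimum mean of 5 TPM. As deposited 116 fell. Ctcf lost its call with no filter (-1.13, limma adjusted p = 0.131).

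Replicate numbers are shared by both groups, but nothing says that they mark a shared culture. Deviations of replicate 1 correlated at 0.25 across genes between groups. With the replicate block 2 markers passed, and 476 genes rose and 629 fell.

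As deposited, Gap43 was 0.14, Tuba1a 0.18, Tubb2a 0.051, Tmsb10 0.13 and Pcna 0.063. Tuba1a was 0.098 after quantile normalization and 0.0031 with coding genes at the same total. With single libraries left out, Olig1 ranged from -0.020 to 0.24 and Pdgfra from -0.12 to 0.17. The group difference in log2 ratio ranged from -0.028 to 0.051 for Mapt to Dcx, -0.18 to 0.12 for Stmn2 to Tubb3 and -0.014 to 0.17 for Mapt to Map2. For the marker sum it ranged from -0.046 to 0.090 over inhibitory, -0.16 to 0.19 over oligodendrocyte and -0.056 to 0.010 over proliferating cell markers. The cause was not tested. TPM keeps no depth, so what depth limits is unknown.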

Other observations

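Gm20388 is a coding gene model that spans Tubb3 on chromosome 8 (119910841 to 124345722, + strand) and shares 0 exonic bases with it in vM21. It was looked at after its values were seen. Its deposited TPM was 2.32 and 2.80 in the control libraries and 5.72 and 6.46 after knockdown. After scaling, the log2 fold change was 0.83, with an SE of 0.145 and a limma adjusted p of 0.0270. The sources used here do not give the annotation that the authors counted on, so which exons these reads came from is not known.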
